A study of Mus musculus with 816 samples.

Results

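Dopamine was applied at 100 uM for 24 h to 9 cultures of primary mouse microglia, and these are the cultures described here. They were chosen by their labels, as the cultures that received dopamine and no other stimulus, out of 418 cultures profiled at 24 h and 816 samples in all. The 40 cultures labelled None at 24 h, which received no stimulus, served as the comparison. All cultures were commercial microglia from neonatal mouse brain, grown in 96-well plates and given fresh medium, with or without a stimulus, after 4 days. The cells carried no transgene, and the labels give neither strain nor sex, so the number of animals behind a lot of cells is not known. Gene expression was measured with 3′-end RNA-seq libraries, and values are CPM, the reads of a gene scaled to the same total of mapped reads in every culture. The plate headers place 6 of the dopamine cultures on 2 plates of the cell lot Sciencell_March15, with 3 on each, called March plate 1 and March plate 2 here. The other 3 were on 1 plate of the lot Sciencell_Feb15, called the February plate. Of the 40 untreated cultures, 18 were on these plates: 6 on March plate 1, 3 on March plate 2 and 9 on the February plate. Norepinephrine, the other catecholamine of the panel, was given at 1 uM for 24 h to 7 cultures on the same plates.

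Dopamine is a catecholamine transmitter that acts through G protein-coupled receptors, of which the D1 class raises and the D2 class lowers cyclic AMP. Cells inactivate it with monoamine oxidase, which removes its amine. In solution dopamine also oxidises to quinones. Microglia are the resident macrophages of the brain, and they keep neuronal contacts in check through receptors such as CX3CR1, which binds fractalkine on neurons.

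The 9 dopamine cultures did not form 1 group. Pearson's r of log2 values lay between 0.810 and 0.951 for pairs on the same plate and between 0.865 and 0.891 for pairs across the March plates. For pairs of a March plate culture and a February plate culture it was 0.735 to 0.799. The 3 dopamine cultures of the February plate were all in the top row of that plate, whereas 8 of the 9 untreated cultures there were in inner wells and none was in the top row. On the March plates well position differed the other way. All 3 untreated cultures of March plate 2 and 3 of the 6 on March plate 1 were in edge wells of the top row. The dopamine cultures there were in inner wells, apart from 1 in an edge well of March plate 2. The part of well position in the March plate results was not tested. The 3 dopamine cultures of the February plate had 7569 to 7967 genes above 5 CPM, fewer than the 8127 to 9288 of the untreated cultures of the plate. Of the 9 microglial marker genes, 9 had a median above 5 CPM in dopamine cultures of the March plates and 7 in those of the February plate. In untreated cultures of these plates 9 and 8 did so. The markers' summed level was 3588 to 5024 CPM in dopamine cultures of the March plates, against 3755 to 4905 CPM in untreated ones. On the February plate it was 1876 to 2175 CPM with dopamine and 5365 to 7542 CPM without. Csf1r led these sums. Its median was 2927 CPM with dopamine and 2556 CPM without on the March plates, and 1425 and 4519 CPM on the February plate. For the 3 dopamine cultures of the February plate, cell lot, RNA pool, plate row and plate cannot be told apart in their difference from the March plates. The main results are therefore given for the March plates apart from them. Within the February plate their pool also held untreated cultures, and a fit with pool as block is given below. In these bulk samples fewer cells of a type and less RNA per cell cannot be told apart either. Depth was 1.08 to 3.67 M (mega) reads in dopamine cultures and 1.09 to 14.99 M reads in untreated ones, and 3 of the 9 dopamine cultures had at least 2 M. No pair among the 36 pairs of dopamine cultures held identical values. Markers of astrocytes (at most 7.62 CPM summed), neutrophils (7.71 CPM) and lymphocytes (2.28 CPM) were near 0 in every dopamine culture, and neuronal markers reached 27.2 CPM in 1 culture. Summed markers of fibroblasts and mural cells were at 20.7 to 301.0 CPM in the dopamine cultures, those of endothelial cells at 28.95 to 108.2 CPM and those of the oligodendrocyte lineage at 29.5 to 64.5 CPM. In the 40 untreated cultures these sums were 0.650 to 1281, 28 to 186.6 and 34.7 to 113.1 CPM.

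Across all 9 cultures, 614 of 11661 genes differed from the untreated cultures at an adjusted p under 0.05, or 5.27% (limma with plate as a block). Of these, 170 were higher (1.46%) and 444 were lower (3.81%), and 351 (3.01%) also changed by at least 1 on the log2 scale. The count rested on the February plate. Without its 3 dopamine cultures, 9 of 11551 genes were called (0.0779%). All 9 were higher and 0 were lower, with 570 genes at an unadjusted p under 0.05. The 9 genes were Ccl9, Cfp, Ets2, Man1a, Mat2a, Pf4, Phlda1, Pitpnc1 and Trem1. Within the March plates, 6 dopamine against 9 untreated cultures gave 58 calls among 10199 genes (0.569%), of which 49 were higher (0.48%) and 9 lower (0.0882%), and 19 passed the fold criterion (0.186%). Within the February plate, 3 against 9 cultures gave 2221 calls among 9724 genes (22.8%), with 391 higher (4.02%) and 1830 lower (18.8%), and 2077 passed the fold criterion (21.4%). The difference between the February plate and March plate effects itself passed the test for 2711 of 11019 genes (24.6%), with 486 more positive (4.41%) and 2225 more negative (20.2%) on the February plate. The median log2 fold change of all genes was 0.06 on the March plates and -0.41 on the February plate. Rescaling the libraries by median ratios moved the latter to -0.27 and changed the share of higher genes among the calls from 17.6% to 28.3% on the February plate, and from 84.5% to 70% on the March plates.

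The within-lot comparisons share no culture, so genes called in 1 lot could be looked up in the other. Among 9329 genes tested in both, 49 were called higher on the March plates. On the February plate 18 of them had the same sign. There 12 were called lower and 7 higher, beside 18.8% and 4.02% of all genes tested on that plate. The 7 were Mat2a, Ccl9, Ccl6, Baiap2, Trf, Ier3 and Dusp5. Of 8 genes called lower on the March plates, 6 had the same sign on the February plate and 3 were called lower there, among them Cx3cr1 and the uncharacterised A630033H20Rik and Gm29562. In the other direction, 199 of 380 genes called higher on the February plate had the same sign on the March plates, as did 625 of 1758 called lower, whose median log2 fold change on the March plates was 0.11. Of all 10199 genes tested on the March plates, 5912 had a positive and 4287 a negative log2 fold change. For the 9724 tested on the February plate these counts were 3390 and 6334.

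On a common footing, 3 genes had all 9 dopamine cultures above all 18 untreated cultures of the same plates (0.0257% of genes tested): Mat2a, Ccl9 and Ccl6. No gene (0%) had all 9 below. The promoters of these 3 genes are shown since they carried the result common to both lots, with 250 bases before and 50 after the transcription start (RefSeq annotation of GRCm38.p6, 5′ to 3′ on the gene's strand). Capitals mark a match to the AP-1 motif TGANTCA, searched on both strands. The windows were also searched for the cyclic AMP response element core TGACG and the antioxidant response motif TGACNNNGC, and neither was found in them. The windows are Mat2a at chr6:72439507-72439806, Ccl9 at chr11:83578587-83578886 and Ccl6 at chr11:83593038-83593337, all on the minus strand.
Mat2a: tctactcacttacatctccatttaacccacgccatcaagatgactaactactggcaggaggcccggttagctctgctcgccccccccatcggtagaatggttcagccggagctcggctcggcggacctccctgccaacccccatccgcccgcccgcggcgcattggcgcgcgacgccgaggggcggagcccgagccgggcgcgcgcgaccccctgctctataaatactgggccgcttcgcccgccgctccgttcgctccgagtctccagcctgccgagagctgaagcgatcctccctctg
Ccl9: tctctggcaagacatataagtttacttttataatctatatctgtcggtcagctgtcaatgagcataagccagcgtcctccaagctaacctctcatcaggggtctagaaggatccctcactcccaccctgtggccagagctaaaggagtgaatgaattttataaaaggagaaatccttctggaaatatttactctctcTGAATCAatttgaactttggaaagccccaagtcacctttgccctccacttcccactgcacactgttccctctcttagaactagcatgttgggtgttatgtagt
Ccl6: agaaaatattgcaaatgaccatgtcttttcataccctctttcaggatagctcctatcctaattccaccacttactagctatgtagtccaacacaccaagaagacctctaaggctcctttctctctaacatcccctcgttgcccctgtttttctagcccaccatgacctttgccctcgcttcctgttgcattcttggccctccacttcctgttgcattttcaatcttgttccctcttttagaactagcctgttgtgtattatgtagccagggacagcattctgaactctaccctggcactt
The match in Ccl9 starts at position -53 from the transcription start. Among the 27025 promoters of the table, 7.93% held this AP-1 motif. It was in 4.67% of the 8324 matched promoters of tested genes and in 9.76% (4) of the 41 matched promoters of genes called higher on the March plates.

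Mat2a encodes the catalytic subunit of methionine adenosyltransferase, which makes S-adenosylmethionine, the main methyl donor of cells (chr6:72432799-72439558, ENSMUSG00000053907). Its levels with dopamine were 237.9, 202.1 and 246.8 CPM on March plate 1, 160.8, 203.0 and 196.2 CPM on March plate 2, and 213.1, 189.4 and 162.0 CPM on the February plate. Untreated cultures of these plates had 87.5 to 139.1, 66.4 to 93.2 and 52.8 to 146.1 CPM. The lowest dopamine culture thus lay above the highest untreated one, and each plate showed the same separation. The log2 fold change was 1.07 ± 0.16 (SE, adjusted p = 6.9e-05, limma, n = 9 and 40). It was 1.15 ± 0.13 on the March plates and 0.93 ± 0.30 on the February plate, and the difference between them did not pass the test (adjusted p = 0.63). Mat2b, the regulatory subunit of the enzyme, had a log2 fold change of -0.07 ± 0.20 (adjusted p = 0.87). In 7 wells of the top row of the February plate that held other stimuli, Mat2a was at 27.8 to 93.4 CPM, below the 3 dopamine wells of the same row. Elsewhere on that plate, 73 wells of the other rows with various stimuli ranged from 25.6 to 242.9 CPM.

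Ccl9 and Ccl6 are CC chemokines that draw in CCR1-bearing myeloid cells, and their genes lie next to each other on chromosome 11 (chr11:83572919-83578636 and chr11:83587882-83593087). Ccl9 was at 97.7, 127.8 and 106.0 CPM on March plate 1, 105.0, 100.2 and 115.9 CPM on March plate 2, and 185.0, 157.2 and 135.2 CPM on the February plate. Untreated cultures had 39.6 to 88.5, 36.8 to 63.1 and 33.8 to 75.8 CPM there. All 9 dopamine cultures were above the untreated range, with the highest values on the February plate. The log2 fold change was 1.31 ± 0.15 (adjusted p = 1.7e-07, limma, n = 9 and 40), 1.10 ± 0.18 on the March plates and 1.64 ± 0.28 on the February plate. Ccl6 was at 218.3, 290.4 and 275.6 CPM on March plate 1, 229.5, 209.9 and 235.3 CPM on March plate 2, and 274.1, 341.7 and 291.4 CPM on the February plate. The untreated ranges were 143.8 to 196.1, 121.6 to 159.6 and 81.5 to 182.5 CPM. The Ccl6 groups did not overlap on any plate, and its log2 fold change of 0.88 ± 0.13 was smaller than that of Ccl9. In the 7 wells of the same row with other stimuli, Ccl9 was at 35.9 to 206.3 CPM (median 68.5) and Ccl6 at 97.95 to 398.3 CPM (median 207.4), so both ranges reached past the dopamine wells of that row. For neither chemokine did the lots differ by the test (adjusted p = 0.22 for Ccl9 and 0.06 for Ccl6).

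**Figure D1:**
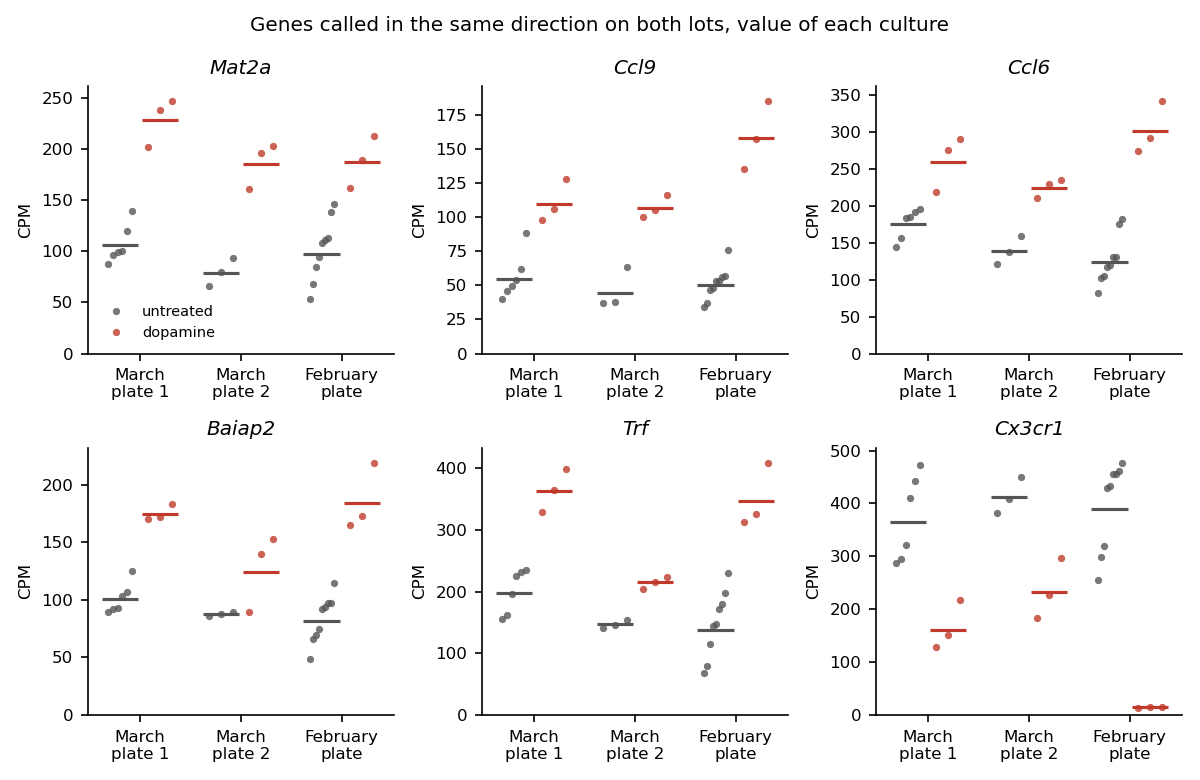
CPM on a linear axis in each dopamine and untreated culture for Mat2a, Ccl9, Ccl6, Baiap2, Trf and Cx3cr1, by plate. Points are cultures, and lines mark the mean of log2 values put back on the CPM scale. Dopamine points sit above untreated points in all plates for Mat2a, Ccl9 and Ccl6 and below them for Cx3cr1, which is lowest with dopamine on the February plate.

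The other genes that rose in both lots encode an actin-binding adaptor (Baiap2), the iron carrier transferrin (Trf), an early-response survival factor (Ier3) and a nuclear phosphatase of ERK (Dusp5). Baiap2 was at 183.5, 170.1 and 171.6 CPM on March plate 1, 89.4, 139.6 and 152.5 CPM on March plate 2, and 164.9, 172.9 and 219.3 CPM on the February plate. Untreated cultures of the 3 plates held 89.5 to 125.6, 86.3 to 89.4 and 48.3 to 114.8 CPM of it. One culture of March plate 2 was thus at the top of the untreated range there, and the other 8 were above theirs (log2 fold change 0.86 ± 0.15, adjusted p = 0.00053). Trf was at 328.9, 397.8 and 364.2 CPM on March plate 1, 224.4, 204.7 and 215.8 CPM on March plate 2, and 325.7, 312.0 and 408.9 CPM on the February plate, above the untreated 154.9 to 235.0, 140.5 to 153.9 and 68.0 to 230.5 CPM on each. Ier3 rose more on the February plate (3.19 ± 0.49) than on the March plates (1.12 ± 0.18), a difference that passed the test (adjusted p = 0.00098). For Dusp5, which rose by 1.49 ± 0.33 on the log2 scale (adjusted p = 0.0053), cultures of March plate 2 and of the February plate overlapped the untreated range.

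Cx3cr1 fell in both lots and to unequal extents (chr9:119901616-120069879). Dopamine cultures had 216.9, 127.9 and 151.1 CPM on March plate 1, 297.5, 227.9 and 184.4 CPM on March plate 2, and 14.1, 15.2 and 14.4 CPM on the February plate. Untreated cultures were at 287.2 to 472.4, 381.8 to 450.5 and 256.3 to 477.3 CPM. Within each plate the groups did not overlap, and the February plate cultures lay far below all others. The log2 fold change of Cx3cr1 was -1.02 ± 0.15 on the March plates (adjusted p = 0.0015) and -4.65 ± 0.24 on the February plate (1.4e-09), and the difference of -3.63 ± 0.28 passed the test (7.8e-11, limma). In the 7 other wells of the top row of the February plate Cx3cr1 was between 7.4 and 110.1 CPM, and the part of the plate row in its level there was not tested.

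Transcripts of the receptors and enzymes that handle dopamine were examined next. Of 15 dopamine, trace amine and adrenergic receptor genes, 3 passed the filter on low values, and 0 of these 3 were called with all 9 cultures. Drd2, Drd3, Drd4 and Drd5 were listed at 0 in every dopamine culture and in every untreated culture of the same plates. Drd1 was listed at 0 in all but 1 of the dopamine cultures, with 2.58 CPM in the other. The transporter gene Slc6a3 and Th, which encodes the rate-limiting enzyme of dopamine synthesis, were also listed at 0 throughout these cultures.

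Of 21 genes for synthesis, transport and breakdown of dopamine, 8 were tested and 0 were called with all 9 cultures. Maoa, which encodes a monoamine oxidase, had a log2 fold change of 0.15 ± 0.18 on the March plates and 1.81 ± 0.52 on the February plate (adjusted p = 0.8 and 0.019). Gch1, needed for the cofactor of Th, had 0.14 ± 0.35 and 1.56 ± 0.44 (adjusted p = 0.91 and 0.017).

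On the March plates the rises in named genes fell into a few kinds. Phlda1, an early-response gene, rose most, by 2.19 ± 0.31 on the log2 scale (adjusted p = 0.00072). Its levels were 58.8, 30.8 and 48.98 CPM on March plate 1 against 7.34 to 18.4 CPM, and 25.8, 24.0 and 19.5 CPM on March plate 2 against 0.852 to 5.70 CPM. On the February plate its 3.35, 18.6 and 37.5 CPM spread over and above the untreated 1.07 to 18.4 CPM. The platelet factor chemokine gene Pf4 was at 149.2, 353.1 and 253.5 CPM on March plate 1 against 53.7 to 167.3 CPM, and at 589.7, 550.8 and 525.4 CPM on March plate 2 against 118.9 to 171.0 CPM. It rose by 1.53 ± 0.25 there (adjusted p = 0.0024), and on the February plate the log2 fold change was -0.20 ± 0.31 (the difference, -1.73 ± 0.42, had an adjusted p of 0.0027). Pf4 also led the marker list for monocytes and border macrophages. The summed level of that list was 189.5 to 699.8 CPM with dopamine and 87.5 to 239.4 CPM without on the March plates, where 2 of its 7 markers had a median above 5 CPM. With dopamine the median there was 439.3 CPM for Pf4 and 509.5 CPM for the sum, so the sum mostly restates Pf4. The part of monocytes and border macrophages in the result was not tested.

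Several genes of complement and antibody binding were among the March plate rises. These were Cfp, which encodes properdin (0.78 ± 0.15), C5ar1, the receptor for C5a (0.82 ± 0.13), and Fcgr2b, an inhibitory Fc receptor (0.78 ± 0.14). Of 12 genes of the complement and Fc receptor list tested there, these 3 rose and 0 fell, beside 0.48% and 0.0882% of all genes. The list's median log2 fold change was 0.29, beside 0.06 for all genes. Of 13 tested on the February plate 2 rose and 7 fell, beside 4.02% and 18.8% of all genes tested there. Their median was -0.999, beside -0.41 for all genes. C1qb, a subunit of the complement component C1q, fell by 1.75 on the log2 scale there. C5ar1 and Fcgr2b differed between lots (adjusted p = 0.00093 and 0.0018), and Cfp did not pass that test (0.052).

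The cyclic AMP and immediate early list had 16 members tested on the March plates. Egr1 (1.02 ± 0.20) and Dusp1 (0.96 ± 0.16), both early-response genes, rose and 0 fell, beside 0.48% and 0.0882% of all genes. The list's median was 0.35, beside 0.06 for all genes. Of 14 tested on the February plate 0 rose and 5 fell, among them Pde4a and Pde4d, which encode phosphodiesterases that break down cyclic AMP. The list's median was -0.91 there, beside -0.41 for all genes, of which 18.8% were called lower. Gnas, which encodes the G protein subunit that stimulates adenylyl cyclase, fell by 0.57 on the log2 scale on the March plates (adjusted p = 0.036). Other March plate rises were Man1a, a mannosidase of the Golgi (1.28 ± 0.16), Ets2, a transcription factor (0.96 ± 0.15), Pitpnc1, a phospholipid carrier (0.93 ± 0.12), Ptgs1, a prostaglandin synthase (1.00 ± 0.20), Csf2rb, the shared chain of the GM-CSF receptor (0.73 ± 0.11), and the cholesterol exporter Abca1 (0.80). Man1a was at 106.9 to 208.5 CPM with dopamine and 32.8 to 92.3 CPM without on the March plates. On the February plate its levels were 13.4, 17.9 and 21.02 CPM against 28.2 to 76.2 CPM, a difference between lots of -2.55 ± 0.36 (adjusted p = 3.9e-06). Map4k1 fell on the March plates, where it was at 0 to 1.496 CPM with dopamine and 1.78 to 8.14 CPM without.

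**Figure D2:**
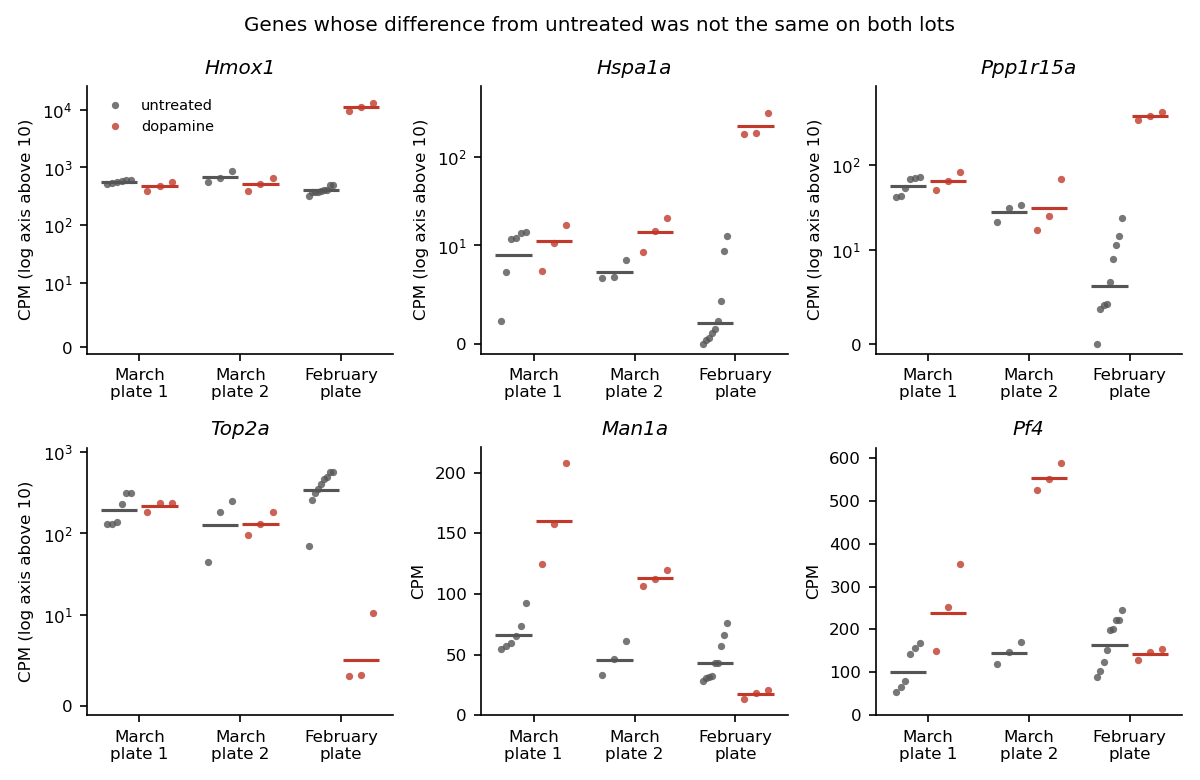
CPM of Hmox1, Hspa1a, Ppp1r15a and Top2a (log axis above 10 CPM) and of Man1a and Pf4 (linear axis) in each dopamine and untreated culture, by plate; lines mark the mean of log2 values put back on the CPM scale. With dopamine the first 3 genes are highest and Top2a is lowest on the February plate. Dopamine cultures lie above the untreated ones for Man1a on both March plates and for Pf4 on March plate 2, and Man1a lies below them on the February plate.

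The February plate cultures differed from the March plate cultures in genes of the antioxidant, heat shock and amino acid responses. The transcription factor NRF2 drives genes for glutathione and thioredoxin chemistry from antioxidant response elements, and ATF4 drives genes for amino acid supply under stress. The promoters of Srxn1, which encodes a sulfiredoxin that repairs oxidised peroxiredoxins, and Ppp1r15a, which encodes a regulator of protein phosphatase 1 that restores translation after stress, are shown as examples of genes that rose there. Capitals mark matches on either strand to TGACNNNGC, TGACG and TGANTCA, which overlap in part. The windows are chr2:152105274-152105573 on the plus strand for Srxn1 and chr7:45526219-45526518 on the minus strand for Ppp1r15a (GRCm38.p6, RefSeq).
Srxn1: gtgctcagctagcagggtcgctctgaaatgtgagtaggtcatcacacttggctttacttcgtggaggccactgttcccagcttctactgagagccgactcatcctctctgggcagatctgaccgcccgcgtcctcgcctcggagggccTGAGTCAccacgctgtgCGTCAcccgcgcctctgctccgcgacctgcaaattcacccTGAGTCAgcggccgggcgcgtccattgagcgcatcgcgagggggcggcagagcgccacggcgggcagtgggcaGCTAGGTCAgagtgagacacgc
Ppp1r15a: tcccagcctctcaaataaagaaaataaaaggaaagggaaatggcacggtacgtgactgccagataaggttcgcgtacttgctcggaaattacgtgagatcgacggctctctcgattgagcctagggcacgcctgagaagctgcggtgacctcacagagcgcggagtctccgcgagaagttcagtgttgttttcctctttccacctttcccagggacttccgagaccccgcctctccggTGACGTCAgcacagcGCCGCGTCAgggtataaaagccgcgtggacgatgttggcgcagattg
The Srxn1 window held the antioxidant response motif at position 29 after the start, the cyclic AMP response element core at -85 and AP-1 motifs at -102 and -45. That of Ppp1r15a held the antioxidant response motif at 4 and the core at -12, -9 and 8. Other genes that rose there had fewer matches. The Gclm window held the antioxidant response motif and the core, that of Osgin1 only an AP-1 motif, and that of Hspa1a none. The antioxidant response motif was present in 12.5% of all promoters and in 15.1% of the 8324 matched promoters of tested genes. It was present in 18.8% of the 298 matched promoters of genes called higher on the February plate and in 7 of the 22 matched promoters of the NRF2 list (31.8%).

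Of 26 NRF2 target genes tested on the February plate, 21 rose and 1 fell, beside 4.02% and 18.8% of all genes tested there. Their median log2 fold change was 1.69, beside -0.41 for all genes. Of 25 tested on the March plates 0 rose and 0 fell, with a median of -0.07. Hmox1, the inducible heme oxygenase, led the list (chr8:75093621-75100589). Its levels were 11377, 12900 and 9596 CPM with dopamine on the February plate, against 315.5 to 493.4 CPM in untreated cultures there. Dopamine cultures of the March plates had 392.3 to 653.8 CPM and untreated ones 522.7 to 853.1 CPM. The groups were far apart on the February plate (log2 fold change 4.80 ± 0.20, adjusted p = 3.3e-11) and overlapped on the March plates (-0.33 ± 0.12, adjusted p = 0.3). The difference of 5.13 ± 0.22 passed the test (adjusted p = 2.4e-17). Osgin1, an oxidative stress response gene, rose by 3.87 ± 0.76 on the February plate, Nqo1, a quinone reductase, by 3.19 ± 0.78, and Slc7a11, the cystine importer, by 2.44 ± 0.44. Gclm, the regulatory subunit of the enzyme that makes γ-glutamylcysteine, rose by 2.93, and G6pdx fell by 0.74. With all 9 cultures in 1 fit, 12 of 26 rose and 0 fell, beside 1.46% and 3.81% of all genes. That count rests on the February plate.

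Heat shock genes rose in part. Among all genes tested on the February plate, 4.02% were called higher and 18.8% lower. On the February plate 4 of 17 chaperone genes rose and 1 fell, led by Hspa1a and Hspa1b, near-identical copies of the inducible Hsp70 gene whose reads the counting could split. Hspa1a was at 318.0, 183.9 and 186.8 CPM with dopamine and at 0 to 12.9 CPM without (6.15 ± 0.72), against 7.38 to 20.6 CPM and 2.28 to 14.4 CPM on the March plates. In the amino acid response list 8 of 14 rose on the February plate and 0 fell, with a median of 1.44. Among them Trib3, a pseudokinase, was at 72.4, 92.3 and 75.8 CPM against 0 to 11.002 CPM, and Ddit3, which encodes the transcription factor CHOP, was at 49.6, 61.1 and 64.4 CPM against 0 to 12.2 CPM. For that list 0 of 14 members were called on the March plates, with a median of -0.38. Ppp1r15a, which is in neither list, was at 335.1, 376.1 and 426.6 CPM on the February plate against 0 to 23.4 CPM. The list for the unfolded protein response of the endoplasmic reticulum did not move with these: 0 of 12 rose and 1 fell, with a median of 0.02.

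Genes of cell division and of resting microglia were lower on the February plate. Of 20 proliferation genes tested there 0 rose and 18 fell, with a median of -2.67, beside 18.8% of all genes called lower, while 0 of 20 were called on the March plates (median 0.17). Top2a, a topoisomerase of dividing cells, was at 3.35, 3.44 and 10.8 CPM with dopamine. The untreated cultures of the plate had 69.3 to 563.8 CPM, and their lowest value came from the only untreated culture in an edge well. In all 23 edge wells of rows B to H, with various stimuli, Top2a was at 19.2 to 69.3 CPM (median 37.9). The median over all 73 wells of those rows was 255.3 CPM. Low Top2a was thus shared by the edge wells of this plate, and the part of edge position in the fall was not tested. Dopamine and untreated cultures held Top2a at 44.1 to 314.7 CPM on the March plates and overlapped. The homeostatic microglia list had 11 of 15 members lower and 0 higher on the February plate (median -1.56, beside -0.41 for all genes, of which 18.8% were called lower), among them the purinergic receptor gene P2ry13 and the Fc receptor-like gene Fcrls. P2ry13 was at 1.34, 1.38 and 11.5 CPM against 47.9 to 153.4 CPM there. Of 16 members tested on the March plates 1 fell, which was Cx3cr1, beside 0.0882% of all genes, with a median of 0.11. P2ry13 and Fcrls had log2 fold changes of 0.72 and 0.55 on the March plates, neither past the test.

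The wells in the same row of the February plate were compared, since dopamine held 3 wells of its top row and 7 others held MPP, s100B or norepinephrine. Hmox1 was at 1804 and 3502 CPM in the MPP wells, 2733 to 4932 CPM in the 3 s100B wells and 776.4 and 793.9 CPM in the norepinephrine wells. The same stimuli gave 450.3 to 632.1, 299.3 to 567.9 and 452.0 to 687.0 CPM of Hmox1 in their other cultures. These were all on the March plates, so that contrast is one of plate and lot as well as row. For Hmox1 every one of the 7 wells was thus above the untreated cultures of the plate, and the 3 dopamine wells were above all of them. The order differed between genes. Srxn1 was at 473.9 and 491.2 CPM with MPP, 481.5 to 814.0 CPM with s100B and 193.4 and 270.2 CPM with norepinephrine. With dopamine it was at 303.8 to 390.1 CPM. Osgin1 was at 14.3 to 99.2 CPM in the 7 wells, with s100B at 81.2 to 99.2 CPM and dopamine at 63.9 to 79.2 CPM. Gclm was at 1042 to 2780 CPM in the 7 wells and at 2861 to 2995 CPM with dopamine. The median log2 difference from untreated cultures over the NRF2 list was 1.58 for MPP, 1.17 for s100B and 0.52 for norepinephrine in that row, beside 1.69 for dopamine. Over the proliferation list it was -1.99, -2.88 and -2.34, beside -2.67. For the amino acid response list it was 2.11, 0.94 and 0.14, beside 1.44, and for the chaperones 0.68, 0.11 and -0.29, beside 0.70. For the homeostatic microglia list it was -1.74, -1.15 and -0.66, beside -1.56. Over all genes tested the median difference was -0.12, -0.66 and -0.08, beside -0.41 for dopamine. The medians of the other wells thus had the sign of those of dopamine for NRF2, proliferation, amino acid response and homeostatic genes. The amino acid response median of norepinephrine, 0.14, was near 0. Hspa1a was between 0.142 and 92.5 CPM in the 7 wells, all below the 183.9 to 318.0 CPM of dopamine. On March plate 1, 3 untreated cultures were in the top row, and their Hmox1 was at 522.7 to 586.5 CPM. Row and dopamine cannot be told apart on the February plate.

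**Figure D3:**
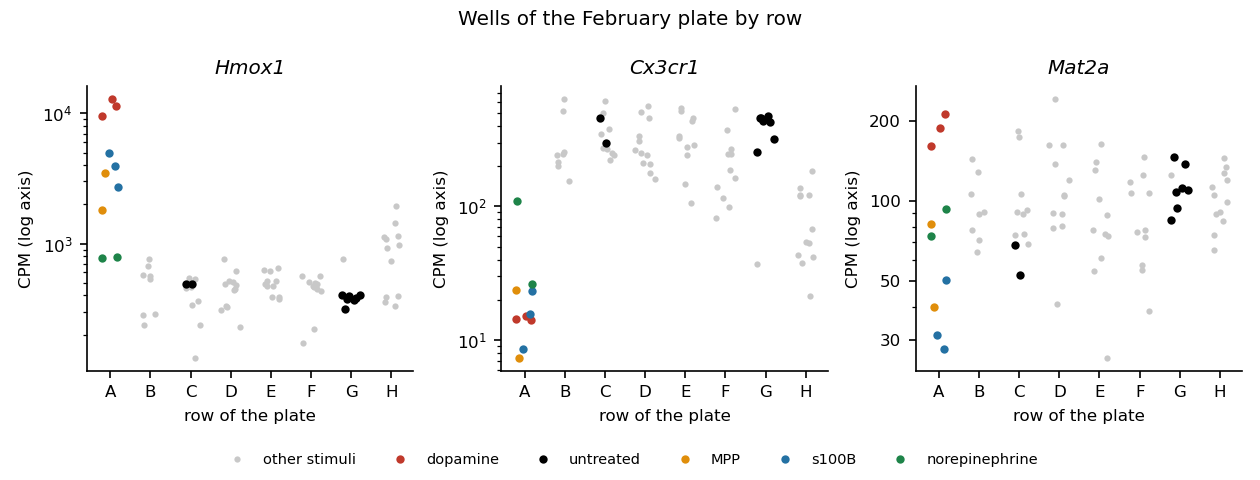
CPM (log axis) of Hmox1, Cx3cr1 and Mat2a in the wells of the February plate, by plate row, with dopamine, untreated, MPP, s100B and norepinephrine wells in colour. In row A all stimuli show raised Hmox1 and low Cx3cr1, with dopamine at the extreme for Hmox1, while Mat2a is raised in that row in the dopamine wells and not in the other 7.

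Among genes chosen for the largest changes with all 9 cultures and 1 sign on every plate, the 12 largest rises spanned 1.45 to 2.73 on the log2 scale. They were Hspa1a (2.73 ± 0.55), Ppp1r15a (2.34 ± 0.51), Dgat2, which makes triglycerides, the kinase gene Pim1 (1.95 ± 0.38), Ier3 (1.93 ± 0.31), Ifrd1, Phlda1 (1.78 ± 0.36), the ATF4 and p53 target Sesn2, Csrnp1, Dusp5, the transcription factor gene Klf4 and Nkiras1. The 12 largest falls spanned -2.44 to -1.80 and were Cx3cr1 (-2.44 ± 0.35), Cd109, Klhl9, the kinetochore gene Spc25, the proton-sensing receptor gene Gpr65, Ssx2ip, Ch25h (-1.94 ± 0.40), the microglial receptor gene Gpr34 (-1.93 ± 0.38), Plekhh2, Tmem176b, Igfbp5 (-1.84 ± 0.29) and Zfp322a. On the March plates alone, Ier3, Phlda1 and Dusp5 of the rises and Cx3cr1 of the falls were called. Ch25h, the enzyme that makes 25-hydroxycholesterol, was listed at 0 in the 3 dopamine cultures of the February plate, against 9.39 to 54.8 CPM untreated, and at 11.2 to 24.8 CPM on the March plates against 19.5 to 29.97 CPM. Rn7sk, a small nuclear RNA outside this rule, was at 300.9, 261.8 and 185.4 CPM on the February plate, and at 0 to 1.09 CPM in the dopamine cultures of the March plates. It reached 128.8 CPM in the 7 other wells of the top row.

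The markers Tnf, Il1b, Arg1 and Retnla did not pass the test. Tnf had a log2 fold change of 0.53 ± 0.22 (adjusted p = 0.15) and Il1b -0.41 ± 0.40 (0.58), both cytokines of acute inflammation. Arg1 and Retnla, markers of the IL4 response, had -0.00 and 0.36. Of 18 cytokine and chemokine genes tested with all 9 cultures, 2 rose and 1 fell, beside 1.46% and 3.81% of all genes. The rises were Ccl9 and the IL-1 receptor antagonist gene Il1rn, and the fall was Ccl4. Of 16 cytokine and chemokine genes tested on the March plates 1 rose, which was Ccl9, and 0 fell, beside 0.48% and 0.0882% of all genes. No interferon-stimulated gene of 16 was called with all 9 cultures, and on the February plate 0 rose and 4 fell, near the share of all genes called lower there (18.8%). None of 4 MHC class II genes tested was called in any of these comparisons, at the depths given above. Of the 13 mitochondrially encoded genes, 11 were tested on the February plate, where 2 rose and 8 fell (18.8% of all genes fell there). The rise of mt-Co1, from 166.9 to 321.2 CPM to 1479, 1607 and 1526 CPM, stood against a fall of mt-Nd1, from 4451 to 10767 CPM to 1430, 1737 and 1343 CPM.

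The gene modules that the study built on these samples are not independent evidence of direction. Among all genes tested, 4.02% were called higher and 18.8% lower on the February plate. These shares were 0.48% and 0.0882% on the March plates, and 1.46% and 3.81% with all 9 cultures. In the module TQ_greenyellow 12 of 26 genes rose and 2 fell on the February plate (median 0.89), while 0 of 27 were called on the March plates. In TQ_black 1 of 36 rose and 22 fell on the February plate (median -1.75), and 0 of 36 were called on the March plates (median 0.18). CY_yellow, with 6 of 22 higher and 0 lower in all 9 cultures, had 2 of 20 called higher on the March plates, where its median was 0.42, and 5 of 18 higher and 2 lower on the February plate, with a median of -0.22.

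Norepinephrine at 1 uM is given side by side, without a comparison, since the doses differed and both stimuli were set against the same untreated cultures. It called 13 of 11556 genes (0.112%), 9 higher (0.0779%) and 4 lower (0.0346%). Without its 2 wells of the February plate, 9 of 11489 genes were called (0.0783%), all 9 higher and 0 lower, with 500 genes at an unadjusted p under 0.05. Ccl9 had a log2 fold change of 1.46 ± 0.19 with norepinephrine and 1.31 ± 0.15 with dopamine. Ccl6 had 0.62 ± 0.13 and 0.88 ± 0.13, Pf4 had 1.55 ± 0.21 and 0.86 ± 0.22, and Cfp had 0.99 ± 0.14 and 0.54 ± 0.13. Trem1, an amplifier of myeloid activation, had 1.64 ± 0.32 and 1.12 ± 0.32. For Mat2a the values were 0.03 ± 0.18 with norepinephrine and 1.07 ± 0.16 with dopamine. Cx3cr1 had -1.37 ± 0.33 (adjusted p = 0.084) and -2.44 ± 0.35, and Hmox1 had 0.25 ± 0.17 and 1.68 ± 0.37. These values include the top-row wells of the February plate. With norepinephrine wells of that plate left out and dopamine on the March plates alone, Cx3cr1 had -0.58 ± 0.35 and -1.02 ± 0.15, and Hmox1 had -0.14 ± 0.20 and -0.33 ± 0.12. The fits differ in their controls, so their SEs are not on 1 footing. That of norepinephrine kept all 40 untreated cultures, and that of dopamine held the 9 of the March plates. In these fits Ccl9 had 1.502 ± 0.23 and 1.10 ± 0.18, Ccl6 0.45 ± 0.16 and 0.62 ± 0.12, Pf4 1.91 ± 0.25 and 1.53 ± 0.25, Cfp 1.31 ± 0.16 and 0.78 ± 0.15, Trem1 1.98 ± 0.40 and 1.79 ± 0.46, and Mat2a 0.17 ± 0.23 and 1.15 ± 0.13.

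Each 24 h condition was also set against the untreated cultures of its own plates, which share controls, so the ranks are a description. Mat2a was higher with dopamine than with any other stimulus among 44 conditions, at a log2 difference of 1.09, followed by ATP at 0.45. On the March plates alone it was at 1.16 and first of 31 conditions, followed by CCL7 at 0.47. Baiap2 was first of 44 at 0.82, with PGE2 next at 0.73, and first of 31 on the March plates at 0.64, with PGE2 at 0.62. For Ccl9 dopamine ranked 19 of 44 at 1.29, below LPS_hi at 3.78, and 9 of 31 on the March plates at 1.12. Ccl6 ranked 9 of 44 at 0.85, below GMCSF at 4.97, and 9 of 31 at 0.63. Cx3cr1 ranked 34 from the top at -2.22, so 10 conditions had a lower value, and 23 of 31 on the March plates. Hmox1 ranked 2 of 44 at 1.38, below HDL at 1.43, and 19 of 31 on the March plates at -0.34.

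**Figure D4:**
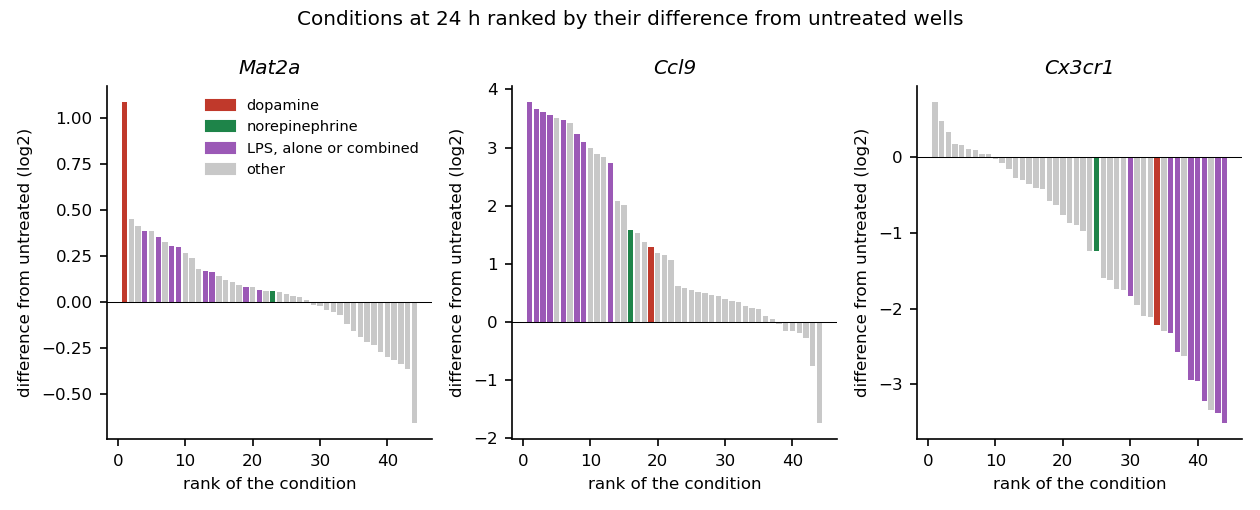
Mean log2 difference from untreated cultures of the same plates for Mat2a, Ccl9 and Cx3cr1 in 44 conditions at 24 h, ranked, with dopamine marked; bars start at 0. Dopamine is first for Mat2a at 1.09, rank 19 for Ccl9 and rank 34 for Cx3cr1.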

How the data were processed

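Cultures of primary neonatal mouse microglia were profiled with 3′-end libraries made from amplified RNA. Salmon 0.7.1 was used by the authors to quantify Ensembl transcripts, whose reads were added up for each gene and scaled by the mapped total. The deposited values are thus CPM without a length correction; the submitters' processing notes name the build mm8, and gene positions here are those of GRCm38. Depth was read from the smallest step between low values. In the cultures compared, 73.5% to 86.5% of low values were whole multiples of that step (tolerance 0.1), so counts were not recovered and no count model was fitted.

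Groups follow the labels, and plate, lot, pool and well the table's header. Genes above 5 CPM in at least 4 cultures of a fit were tested as log2(CPM + 1) with limma 3.58.1 in R 4.3.3 (trended empirical Bayes, plate as fixed block), with Benjamini-Hochberg adjustment over all genes tested. Differences are log2 fold changes on that scale, which understate changes of low genes, given ± SE. Nothing states that cultures came from separate preparations, so p-values measure the spread between wells. The fits within lots, and of the difference between lots, were added after the data were seen. Members, gene lists and tests were chosen with earlier results of these data known. Genes named by size were the 12 largest rises and falls that passed the test, reached 5 CPM and kept 1 sign on every plate, without 31 predicted models; further genes named were members of the lists, called within a lot, or chosen after their values were seen. Alternatives covered the plate term, pool, pseudocount, filter, scaling, depth, well type, and leaving out cultures or plates. Some genes of the lists are not reported here. Promoter sequences were taken from RefSeq (GRCm38.p6), and 128 of 170 genes called higher had one.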

Additional observations from a re-analysis of the deposited data

Results flagged for a closer look

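The effect of dopamine differed between the February plate and the March plates for 2711 genes, by a test of the difference in 1 fit. The log2 difference, February plate minus March plates, was 5.13 for Hmox1, 5.62 for Hspa1a, -3.63 for Cx3cr1, -1.73 for Pf4, -2.55 for Man1a and -5.91 for Top2a. Cell lot, plate, pool and the top-row position of the 3 February plate cultures cannot be told apart in these differences.

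Among the 9 dopamine cultures, 1 culture lay apart from the rest for 2 genes. The lowest Phlda1 culture, at 3.35 CPM on the February plate, had a gap to the next of 0.574 of the range of log2 values, and the lowest Baiap2 culture, at 89.4 CPM on March plate 2, had a gap of 0.496. Chance alone gives such a gap in about 1 of 20 groups. The rule was run on the 12 largest rises, the 12 largest falls, further named genes and depth, so some such gaps can be expected by chance.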

How the results depend on the processing

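The plate term as a random effect, its omission and pools in place of plates each left both counts within 1.5 times of 614 and 351. So did pseudocount 0.5, a filter at 1 CPM, rescaled values and no trend. An edge term did so too, with 894 and 457. Edge wells and dopamine balanced out over the plates, so this term could change the spread but not the log2 fold changes. It is thus no check on well position, whose part was not tested. With only untreated cultures of the same plates the counts were 226 and 159, and without a filter 291 and 169. With the spread from all 24 h conditions they were 1593 and 582. A pseudocount of 5 left 98 genes with a log2 change of at least 1. Leaving out cultures under 2 M reads, which keeps 3 dopamine and 35 untreated cultures, gave 15 and 14. Leaving out 1 dopamine culture gave 85 to 849 and 54 to 523, with the lowest values for February plate cultures (replicates 7, 8 and 9: 102, 85 and 164 genes, and 61, 54 and 109). Leaving out the dopamine cultures of March plate 1 gave 2125 and 1471, of March plate 2 1267 and 849, and of the February plate 9 and 6. The March plates alone gave 58 and 19, with pools as block 69 and 20, and rescaled 50 and 15. The February plate alone gave 2221 and 2077, 2554 and 2219, and 2129 and 1955. The share of higher genes among calls was 27.7%, 45.5% without the plate term, 15.04% with pools in place of plates and 41.1% with a pseudocount of 5. Without the dopamine cultures of the February plate all 9 calls were higher.

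Without the February plate cultures 8 log2 fold changes turned: Pde4a 0.093, Hmox1 -0.33, Nek7 0.071, Fcrls 0.55, Top2a 0.12, Ccna2 0.29, C1qb 0.060 and mt-Co1 -0.23, none past the test. Of 67 named genes called, 6 kept their call in that fit. The cause of each shift was not tested, other than that fewer cultures were fitted. No paired analysis was possible because the labels carry no replicate numbers. In all, 6 dopamine cultures had under 2 M reads, which limits genes near 5 CPM.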
